A study of Mus musculus with 8 samples.

Results

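Messenger RNA of 10 genes that bring cholesterol into cells, store it, move it and export it was followed in 8 mouse adrenal glands. The 10 genes (Scarb1, Lipe, Soat1, Lipa, Npc1, Npc2, Stard4, Abca1, Abcg1 and Plin2) were chosen by symbol, out of 18846 symbols in the data, and all 10 were detected and passed the filter on low counts that left 15361 genes. Each library came from 1 gland of 1 animal of the 129SVEV strain. Glands came from Siah1a-/- mice, knockouts of a gene for a ubiquitin ligase, and from wild-type mice. In each genotype, 2 animals had received adrenocorticotropic hormone (ACTH), the pituitary hormone that stimulates the adrenal cortex, at 100 µg/kg into the peritoneum 1 h earlier, and 2 animals were untreated. In all 4 groups 1 animal was labelled male and the other female. Ages, the structure of the mutant allele and the number of litters are not given in the labels. The untreated animals were not described as injected, so ACTH and the injection itself cannot be told apart. Whole glands were sequenced, so fewer cells of a type and less RNA per cell cannot be told apart either.

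Adrenocortical cells use cholesterol as the precursor of every steroid hormone. In mice most of it is taken from HDL particles through the receptor SR-BI, esterified, kept in lipid droplets and released by a hormone-sensitive lipase when ACTH raises cAMP. Cholesterol from LDL instead passes through the lysosome, and surplus sterol leaves the cell through ABC transporters that are switched on by the oxysterol receptor LXR. The transcription factor SREBP2 raises synthesis and uptake when the sterol content of the endoplasmic reticulum is low.

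The libraries held 8020111 to 29568950 estimated counts. Markers of the adrenal cortex (7 of 7 detected) summed to between 26960 and 51210 CPM (counts relative to the TMM-scaled size of the library) and markers of the medulla (6 of 6) to between 1809 and 7407 CPM. Siah1a itself stood at 17.4 to 25.2 CPM in Siah1a-/- glands and 26.1 to 33.1 CPM in wild-type glands, so reads of this gene remained in the libraries labelled knockout, and the part of the gene removed is not given in the labels. A pair of wild-type libraries stood apart. In the untreated wild-type library labelled male, 7 kidney markers summed to 1826 CPM, against at most 8.69 CPM elsewhere, and its sex-chromosome transcripts went against its label (Xist at 388 CPM, 4 Y-linked genes at 3.06 CPM in sum). The ACTH-treated wild-type female library held 8 liver markers at 64740 CPM in sum, against at most 1180 CPM elsewhere. Their values are given beside the results they touch, and the main results are also given without them.

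Per transcript length, Scarb1 was far above the other members. Its deposited RPKM (reads normalised for transcript length and for depth) averaged 1184 ± 714 over the 8 libraries (SD, n = 8), with a lowest value of 513, above the highest value of every other member. Plin2 followed at 94.2 ± 34.3 RPKM, and then Soat1 at 67.0 ± 18.5, Lipa at 66.6 ± 17.6 and Lipe at 60.3 ± 27.8 RPKM, 4 genes whose ranges over libraries overlapped. Npc2 averaged 40.3 ± 6.17 RPKM, Abca1 28.4 ± 8.89 and Npc1 16.0 ± 5.61 RPKM. The sterol carrier Stard4 averaged 7.99 ± 5.75 RPKM and the transporter Abcg1 2.02 ± 1.05 RPKM. The order put the uptake receptor first, the ester and droplet genes next, and a cytosolic carrier and an exporter last. Below Scarb1, neighbours in this order had overlapping ranges over the libraries. From Plin2 to Npc2 each mean differed from the next by less than the larger of their SDs, and from Npc2 to Abcg1 by more.

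**Figure D1:**
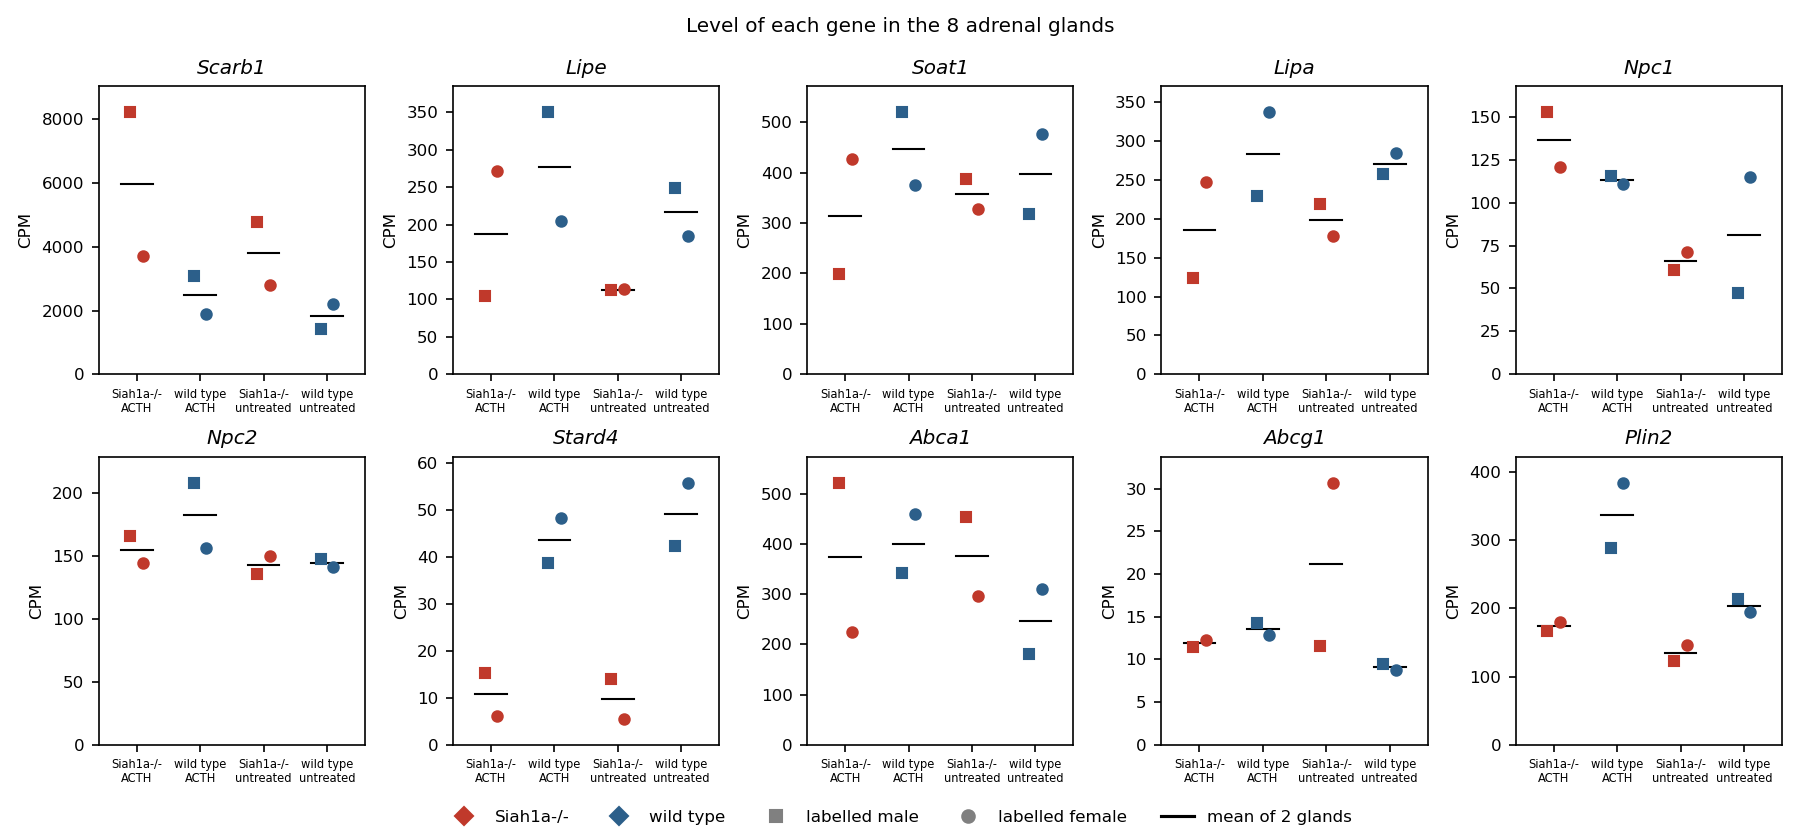
CPM of each of the 10 genes (y axis, from 0, own scale per panel) in the 8 libraries, by genotype and treatment (x axis), with Siah1a-/- in red and wild type in blue, symbols for the sex label and bars for the mean of a group's 2 libraries. Stard4 and Plin2 are the genes whose Siah1a-/- points all lie below all wild-type points.

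Between genotypes, over both treatments, 5 of the 10 genes differed at an unadjusted p under 0.05: the HDL receptor gene Scarb1 was higher in Siah1a-/- glands, and Stard4, Plin2, Lipa and Lipe were lower. Among all genes tested, 13.4% had an unadjusted p under 0.05 in this comparison. None of the 10 passed the adjustment over all genes (Benjamini-Hochberg adjusted p under 0.05 in edgeR's quasi-likelihood test), a threshold that 4 of 15361 genes passed, or 0.026%. DESeq2 called Stard4, Plin2 and Scarb1, in a setting where it called 6.39% of all genes, and limma-voom called Stard4, where it called 0.703%. The median log2 fold change of the 10 genes was -0.23, with 4 higher and 6 lower, beside a median of -0.04 over all genes tested. Without the 2 wild-type libraries with kidney or liver transcripts it was -0.36, with 3 higher and 7 lower, beside -0.09 over all genes tested.

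**Figure D2:**
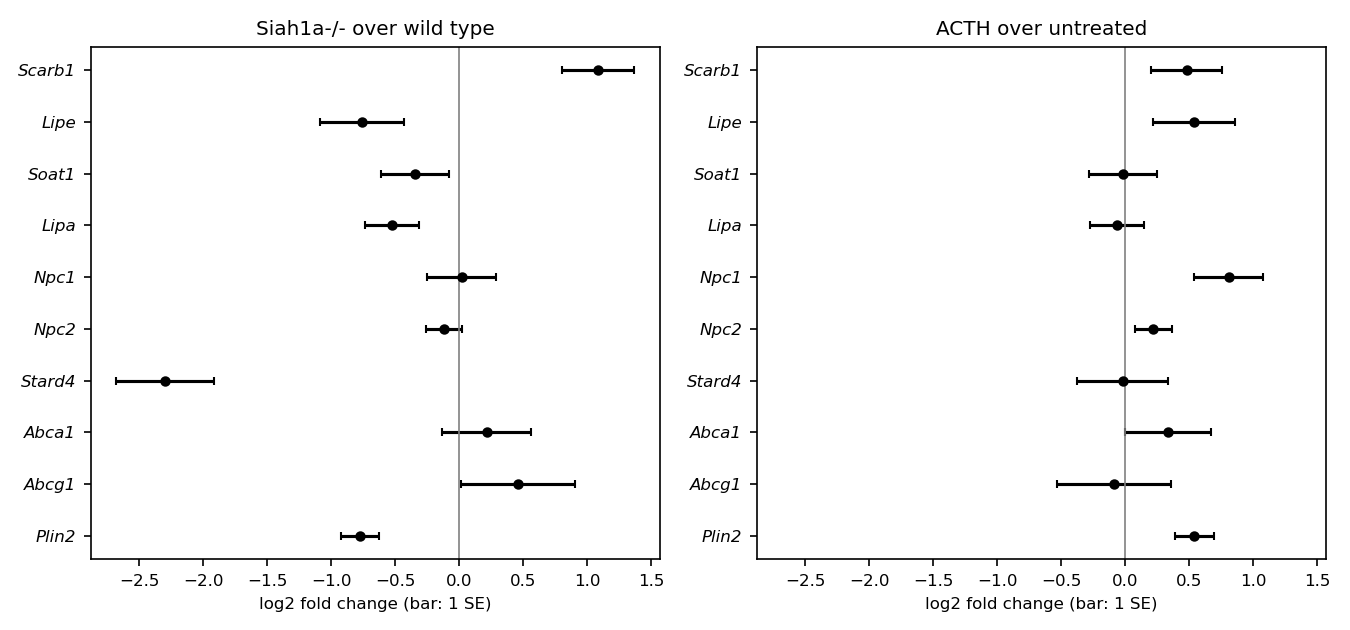
Log2 fold changes of the 10 genes from edgeR (x axis; points, with bars of 1 SE) for Siah1a-/- over wild type (left) and ACTH over untreated (right). Stard4 lies lowest at -2.30 and Scarb1 highest at 1.09 between genotypes, and none passed the adjustment over all genes in either panel.

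Scarb1 encodes SR-BI, which takes cholesteryl esters from bound HDL without engulfing the particle (mm10 chr5:125277087-125341094). It stood at 8229 CPM in the male-labelled and 3711 CPM in the female-labelled ACTH-treated Siah1a-/- gland, and at 4787 and 2798 CPM in the untreated Siah1a-/- glands, against 3079 and 1883 CPM in the ACTH-treated and 1422 and 2219 CPM in the untreated wild-type glands, with the male label first here and below. The male-labelled Siah1a-/- glands held the highest levels, and the ranges of the genotypes overlapped, because the untreated female Siah1a-/- gland lay below the ACTH-treated male wild-type gland. Siah1a-/- glands averaged 4881 ± 2375 CPM and wild-type glands 2151 ± 700 CPM (SD, n = 4 each), a log2 fold change of 1.09 (SE 0.28), or 2.12-fold (adjusted p = 0.193). It was higher in the Siah1a-/- gland of 4 of 4 pairs matched by treatment and sex label, by 0.33 to 1.75 on the log2 scale.

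The smallest of these differences was between the untreated females. The greatest was between the untreated glands labelled male, the pair that holds the library with kidney transcripts. The sex-chromosome transcripts of that wild-type library went against its label, so this pair may not be matched by sex. Without both wild-type libraries with kidney or liver transcripts the Scarb1 difference was 0.77 (adjusted p = 0.46), and without the untreated wild-type female it was 1.42 (adjusted p = 0.0211), where 1.54% of all genes were called. The sum of the 7 cortex markers was 51210, 38360, 49160 and 46400 CPM in Siah1a-/- glands (ACTH-treated male and female, then untreated male and female), against 41200, 33290, 26960 and 45420 CPM in wild-type glands. Of these 7 markers, 6 had a higher mean estimate in Siah1a-/- glands, 2 of them at an unadjusted p under 0.05 and 0 after adjustment, with a median log2 fold change of 0.46 (0.15 without the 2 libraries with kidney or liver transcripts). The 6 medulla markers summed to 6373, 1809, 7407 and 6053 CPM in Siah1a-/- glands in the same order, against 4020, 2481, 2026 and 2792 CPM in wild-type glands. Of these, 5 had a higher estimate in Siah1a-/- glands, 2 of them at an unadjusted p under 0.05 and 0 after adjustment. Their median was 0.83 over both treatments and 0.56 without the 2 libraries with kidney or liver transcripts. It was 1.41 in untreated glands (6 higher, 0 lower) and 0.25 after ACTH (4 higher, 2 lower). The part of the cortical and medullary share of a gland in the Scarb1 values was not tested. Among the 3 Scarb1 transcripts listed, NM_016741 carried 85.4% to 92.5% of the counts in every library.

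Plin2, Lipe, Lipa and Soat1 serve the storage and release of cholesteryl esters; their estimates were all lower in Siah1a-/- glands, as were those of 53.5% of all genes tested, and none of the 4 passed in edgeR with all 8 libraries. Plin2 encodes perilipin 2, a coat protein of lipid droplets in cells other than fat cells. It stood at 167 and 181 CPM in ACTH-treated and 122 and 147 CPM in untreated Siah1a-/- glands, against 289 and 384 CPM in ACTH-treated and 213 and 195 CPM in untreated wild-type glands. The genotypes did not overlap: the highest Siah1a-/- gland lay below the lowest wild-type gland. Among all genes tested, 8.92% had genotypes that did not overlap, 4.71% with the Siah1a-/- glands lower. Siah1a-/- glands averaged 154 ± 25.3 CPM and wild-type glands 270 ± 86.3 CPM (SD, n = 4 each), a log2 fold change of -0.78 (SE 0.15), or 0.584-fold (adjusted p = 0.112), lower in 4 of 4 pairs by 0.41 to 1.09.

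The highest Plin2 value was that of the ACTH-treated wild-type female, the library with liver transcripts. Without the 2 wild-type libraries with kidney or liver transcripts the log2 fold change was -0.64 (adjusted p = 0.377), still lower in Siah1a-/- glands. DESeq2 gave -0.78 (adjusted p = 0.00048). The difference was -0.94 (SE 0.22) after ACTH and -0.61 (SE 0.22) in untreated glands, and neither passed in edgeR (adjusted p = 0.389 and 0.892). After ACTH alone DESeq2 gave -0.93 (adjusted p = 0.00688).

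The Plin2 promoter is shown because Plin2 was the one of these 4 genes whose genotypes did not overlap, and its annotated start lies 1 base from the first base of the only transcript counted. It is RefSeq sequence of GRCm38.p6, minus strand, at chr4:86670010-86670309, from 250 bases before to 50 bases after the start. Capitals mark the motif matches and the first transcribed base.
Plin2: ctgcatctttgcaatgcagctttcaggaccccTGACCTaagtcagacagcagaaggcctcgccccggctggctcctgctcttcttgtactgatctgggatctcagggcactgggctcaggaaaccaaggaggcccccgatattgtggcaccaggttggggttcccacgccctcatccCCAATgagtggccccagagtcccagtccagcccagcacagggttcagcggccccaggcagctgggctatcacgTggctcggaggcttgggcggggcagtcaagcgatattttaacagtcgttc
The first capitals are the reverse complement of AGGTCA, a core site of nuclear receptors, and begin 218 bases before the start. The second are CCAAT, the box bound by NF-Y, which begins 73 bases before the start. On both strands of 32851 RefSeq promoters of this length AGGTCA occurs in 16.3% and CCAAT in 37.4%. Promoter sequences matched 6 of the 10 genes (Plin2, Lipe, Soat1, Lipa, Npc2 and Abca1). AGGTCA was found in 1 of these 6 and CCAAT in 4. Of the other motifs searched, AAGGTCA (the site of the steroidogenic factor NR5A1, which contains AGGTCA) occurs in 4.72% of promoters and in 0 of the 6, the cAMP response element TGACGTCA in 1.79% and in 0, its core TGACG in 20.8% and in 2 (Lipa and Soat1), and the sterol element TCACNCCAC in 1.24% and in 0. These are matches of letters and say nothing of binding.

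Lipe encodes hormone-sensitive lipase, which in the adrenal cortex hydrolyses cholesteryl esters of lipid droplets. It stood at 104 and 272 CPM in ACTH-treated and 112 and 114 CPM in untreated Siah1a-/- glands, against 350 and 205 CPM in ACTH-treated and 249 and 185 CPM in untreated wild-type glands. In Siah1a-/- glands 3 values lay between 104 and 114 CPM, and the ACTH-treated female stood alone at 272 CPM, above 3 of the 4 wild-type glands. The means were 151 ± 80.8 CPM in Siah1a-/- and 247 ± 73.7 CPM in wild-type glands (SD, n = 4 each), a log2 fold change of -0.76 (SE 0.33; adjusted p = 0.371), lower in 3 of 4 pairs. It was -1.16 (adjusted p = 0.177) without the ACTH-treated female Siah1a-/- gland, -0.50 (adjusted p = 0.636) without the ACTH-treated male Siah1a-/- gland and -0.86 (adjusted p = 0.535) without both wild-type libraries with kidney or liver transcripts.

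Fat cells express Lipe at high levels, and the sum of 9 adipocyte markers differed between glands. It was 2654, 5929, 3176 and 2425 CPM in Siah1a-/- glands (ACTH-treated male and female, then untreated male and female), against 6229, 3570, 3198 and 2080 CPM in wild-type glands. Fabp4 held the largest part of this sum in every library, at 1162 to 3426 CPM. In the ACTH-treated male Siah1a-/- gland Fabp4 stood at 2187 CPM, while Plin1 stood at 20.9 CPM, against 88.6 to 133 CPM in the other Siah1a-/- glands. The Siah1a-/- gland with the most Lipe and the wild-type gland with the most Lipe were also those with the highest marker sum in their genotype. All 9 markers were detected, with Lep and Retn, the genes of the adipokines leptin and resistin, at 0 in the ACTH-treated male Siah1a-/- gland, which allows up to 0.213 CPM each (3 counts, counting error only). The median log2 fold change of the 9 markers between genotypes was -0.25, with 5 lower and 4 higher, and their part in the Lipe values was not tested.

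**Figure D3:**
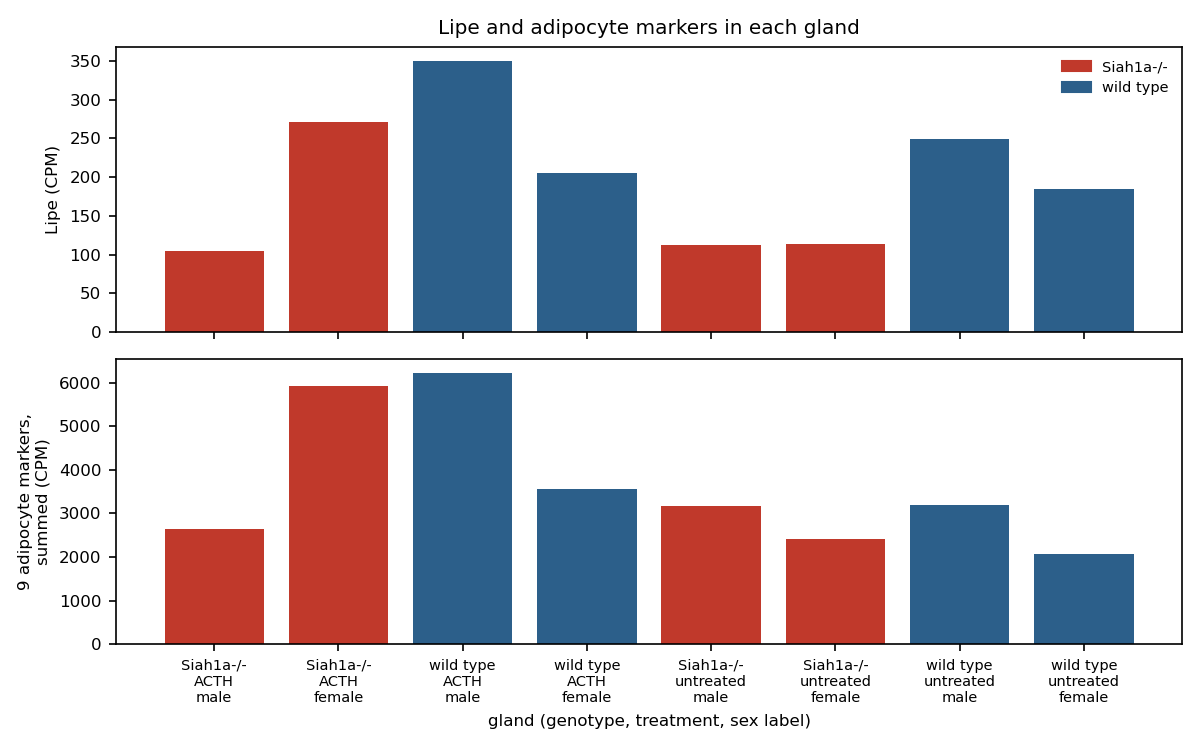
Lipe (upper panel) and the summed level of 9 adipocyte markers (lower panel) in CPM on axes from 0, in each of the 8 libraries, with Siah1a-/- in red and wild type in blue. The ACTH-treated female Siah1a-/- and the ACTH-treated male wild-type library are the highest of their genotype in both panels. Fabp4 holds the largest part of each marker sum.

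The Lipe counts came almost wholly from 1 of 2 transcripts, and the promoter of that transcript is shown for this reason. NM_001039507 carried 86.7% to 99.9% of the Lipe counts, and NM_010719, which starts farther upstream, 0.08% to 13.3%. The RefSeq promoter of GRCm38.p6, minus strand, at chr7:25390063-25390362 has its start 6 bases from the first base of NM_001039507. The capital marks the first transcribed base, and none of the motifs searched was found in it.
Lipe: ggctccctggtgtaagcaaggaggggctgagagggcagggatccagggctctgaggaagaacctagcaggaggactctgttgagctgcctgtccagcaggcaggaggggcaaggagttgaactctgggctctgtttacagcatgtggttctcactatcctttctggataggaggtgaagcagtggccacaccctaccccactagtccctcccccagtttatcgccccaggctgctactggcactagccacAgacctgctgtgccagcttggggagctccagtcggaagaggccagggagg

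Lipa encodes the acid lipase of lysosomes, which frees cholesterol from the esters of engulfed lipoproteins. It stood at 124 and 248 CPM in ACTH-treated and 219 and 178 CPM in untreated Siah1a-/- glands, against 229 and 337 CPM in ACTH-treated and 258 and 285 CPM in untreated wild-type glands. The genotypes overlapped, and the Siah1a-/- gland was the lower one in 4 of 4 matched pairs, by 0.23 to 0.89 on the log2 scale. The means were 192 ± 53.8 CPM in Siah1a-/- and 277 ± 46.2 CPM in wild-type glands (SD, n = 4 each), a log2 fold change of -0.53 (SE 0.21; adjusted p = 0.337). Without the 2 libraries with kidney or liver transcripts it was -0.43 (adjusted p = 0.827).

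Soat1 encodes the acyltransferase ACAT1, which makes the cholesteryl esters that fill the droplets. It stood at 199 and 427 CPM in ACTH-treated and 388 and 327 CPM in untreated Siah1a-/- glands, against 520 and 375 CPM in ACTH-treated and 318 and 477 CPM in untreated wild-type glands. The Siah1a-/- gland was lower in 2 of 4 pairs and higher in 2, and the log2 fold change was -0.35 (SE 0.27; adjusted p = 0.634). Leaving out 1 library moved it between -0.57 (without the untreated male Siah1a-/- gland) and -0.09 (without the ACTH-treated male wild-type gland), and it was -0.62 among the ACTH-treated libraries alone. Without both wild-type libraries with kidney or liver transcripts it was -0.60.

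**Figure D4:**
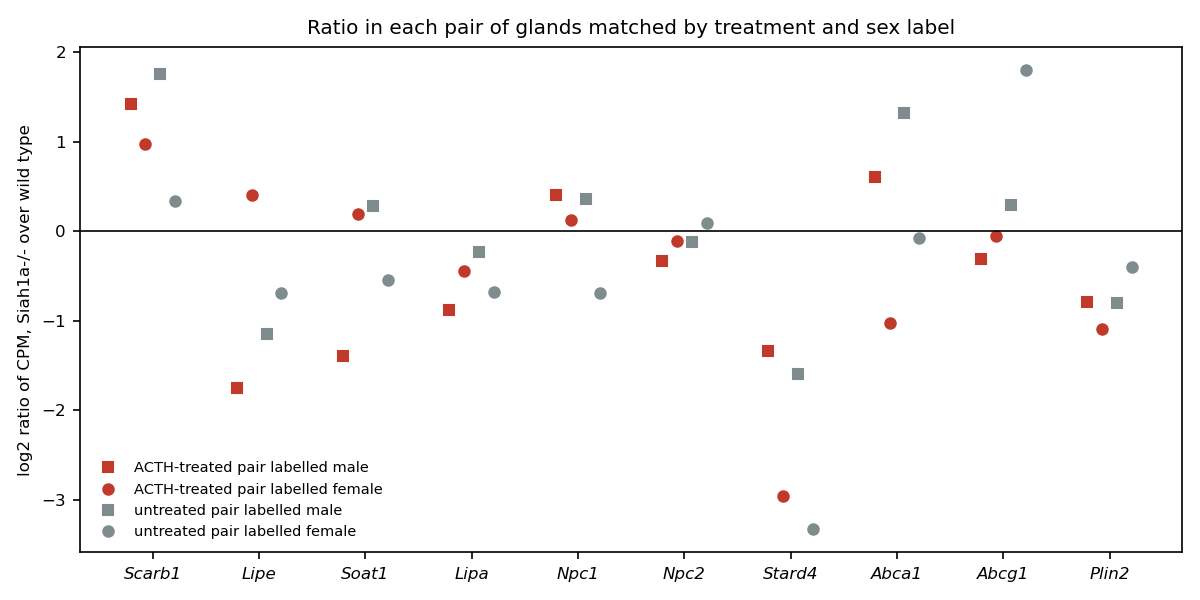
Log2 ratio of the Siah1a-/- to the wild-type library in each of the 4 pairs matched by treatment and sex label (y axis, points; red for ACTH-treated and grey for untreated pairs, squares for the male and circles for the female label), per gene (x axis). Stard4, Plin2 and Lipa lie below 0 in 4 of 4 pairs and Scarb1 above 0 in 4 of 4, while Soat1, Abca1 and Abcg1 have 2 pairs on each side.

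Stard4 encodes a soluble START-domain protein that carries cholesterol between membranes, and in other cells its gene is a target of SREBP2 (mm10 chr18:33199138-33213862). It stood at 15.3 and 6.21 CPM in ACTH-treated and 13.9 and 5.53 CPM in untreated Siah1a-/- glands, against 38.7 and 48.3 CPM in ACTH-treated and 42.2 and 55.7 CPM in untreated wild-type glands. The highest Siah1a-/- value was below the lowest wild-type value, in both treatments. Within Siah1a-/- both females were lower than both males, and within wild type both females were higher than both glands labelled male. The untreated wild-type gland labelled male had sex-chromosome transcripts that went against its label. The difference in Stard4 by sex label was not tested.

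Stard4 averaged 10.2 ± 5.08 CPM in Siah1a-/- glands and 46.2 ± 7.47 CPM in wild-type glands (SD, n = 4 each), a log2 fold change of -2.30 (SE 0.38), or 0.203-fold. This was the largest difference of the 10 genes, and 8.03% of all genes tested had a larger one in either direction. The adjusted p was 0.0997 in edgeR, 1.98e-06 in DESeq2 and 0.0451 in limma-voom. Without the 2 libraries with kidney or liver transcripts the log2 fold change was -2.36 (adjusted p = 0.152). It was -2.46 (SE 0.57; adjusted p = 0.892) in untreated glands and -2.14 (SE 0.56; adjusted p = 0.473) after ACTH. DESeq2 called Stard4 in both (adjusted p = 0.0156 untreated and 0.0208 after ACTH).

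Npc1 and Npc2 encode the membrane and the soluble protein that together pass cholesterol out of the lysosome. Npc2 had the smallest SD relative to its mean RPKM of the 10 genes. It stood at 165 and 144 CPM in ACTH-treated and 136 and 150 CPM in untreated Siah1a-/- glands, against 208 and 156 CPM in ACTH-treated and 147 and 141 CPM in untreated wild-type glands. Its genotype difference was -0.12 (SE 0.14; adjusted p = 0.774). Npc1 averaged 101 ± 43.0 CPM in Siah1a-/- and 97.1 ± 33.2 CPM in wild-type glands (SD, n = 4 each), a log2 fold change of 0.02 (SE 0.27; adjusted p = 0.984), and its sign turned without the 2 libraries with kidney or liver transcripts (-0.30). With all 8 libraries, the lower Stard4 level in Siah1a-/- glands stood beside lysosomal exporters whose means differed by less than 1 SE. Without the 2 libraries with kidney or liver transcripts both exporters were lower too (Npc1 -0.30, Npc2 -0.21), each by more than 1 SE.

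Abca1 and Abcg1 encode the transporters that pass cholesterol to lipid-poor apolipoprotein A-I and to HDL, and both are targets of LXR. Abca1 stood at 523 and 225 CPM in ACTH-treated and 455 and 296 CPM in untreated Siah1a-/- glands, against 343 and 460 CPM in ACTH-treated and 182 and 312 CPM in untreated wild-type glands. The Siah1a-/- gland was higher in the 2 pairs labelled male and lower in the 2 pairs labelled female. The untreated pair labelled male (log2 ratio 1.32) holds the library with kidney transcripts, and the ACTH-treated female pair (-1.03) the one with liver transcripts. The ACTH-treated male pair stood at 0.61 and the untreated female pair at -0.07. The log2 fold change was 0.21 (SE 0.35, adjusted p = 0.834), and 0.12 without the libraries with kidney or liver transcripts. Among the 4 ACTH-treated libraries alone the sign turned (-0.23). Abcg1 stood at 11.5 and 12.3 CPM in ACTH-treated and 11.6 and 30.7 CPM in untreated Siah1a-/- glands, against 14.3 and 12.8 CPM in ACTH-treated and 9.41 and 8.81 CPM in untreated wild-type glands. A single library, the untreated female Siah1a-/- gland, lay above all 7 others. The log2 fold change of Abcg1 was 0.46 (SE 0.45, adjusted p = 0.711). It was 0.38 without the libraries with kidney or liver transcripts and -0.20 among the ACTH-treated libraries alone. Macrophages also carry both transporters, and the sum of 9 macrophage markers was 156, 241, 226 and 294 CPM in Siah1a-/- glands (ACTH-treated male and female, then untreated), against 333, 296, 339 and 190 CPM in wild-type glands; all 9 were detected, and their part in these values was not tested.

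The ACTH comparison asks which of these genes differ 1 h after the hormone. Over both genotypes, Plin2 and Npc1 were higher in ACTH-treated glands at an unadjusted p under 0.05, which 6.11% of all genes tested reached, and none of the 10 passed the adjustment over all genes, which 3 genes did (0.0195%). DESeq2 and limma-voom also called 0 of the 10, where they called 0.794% and 0.0195% of all genes. The median log2 fold change of the 10 genes was 0.28 (6 higher, 4 lower), beside 0.02 over all genes.

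Plin2 averaged 255 ± 102 CPM in ACTH-treated glands and 169 ± 41.9 CPM in untreated glands (SD, n = 4 each), a log2 fold change of 0.54 (SE 0.15; adjusted p = 0.706), higher in 4 of 4 pairs by 0.30 to 0.98. The lowest ACTH-treated value, 167 CPM, lay below the highest untreated value, 213 CPM, because the ACTH-treated glands of the knockout had less Plin2 than the untreated glands of the wild type. Without the 2 libraries with kidney or liver transcripts the difference was 0.47 (adjusted p = 0.868). It was 0.37 (SE 0.22) in Siah1a-/- glands and 0.71 (SE 0.22) in wild-type glands, and the difference between these, -0.34 (SE 0.30), did not pass (adjusted p = 1).

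Npc1 stood at 153 and 121 CPM in ACTH-treated Siah1a-/- and 116 and 111 CPM in ACTH-treated wild-type glands, against 60.9 and 71.4 CPM in untreated Siah1a-/- and 47.4 and 115 CPM in untreated wild-type glands. Only the untreated wild-type female lay within the ACTH-treated range, and 3 of 4 pairs were higher after ACTH. The means were 125 ± 19.0 CPM after ACTH and 73.6 ± 29.2 CPM untreated (SD, n = 4 each), a log2 fold change of 0.81 (SE 0.27, adjusted p = 0.727). Over both genotypes it was 0.78 without the 2 libraries with kidney or liver transcripts. In wild-type glands the difference was 0.54 (SE 0.39), and without the 2 libraries with kidney or liver transcripts, which leaves 1 wild-type library per treatment, it was -0.05; in Siah1a-/- glands it was 1.07 (SE 0.38; adjusted p = 0.999).

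The other 8 genes differed by 0.54 or less on the log2 scale between ACTH-treated and untreated glands, with adjusted p-values of 0.851 or more. Scarb1 averaged 4226 ± 2775 CPM after ACTH and 2806 ± 1436 CPM untreated, a log2 fold change of 0.48 (SE 0.28), and Lipe 233 ± 104 CPM after ACTH and 165 ± 65.3 CPM untreated, 0.54 (SE 0.32). Over the alternatives Scarb1 ranged between 0.24 and 0.82, the lowest without the untreated wild-type library labelled male and the highest without the untreated wild-type female. Lipe ranged between 0.11, without the ACTH-treated female Siah1a-/- gland, and 0.87, without both libraries with kidney or liver transcripts. Stard4 averaged 27.1 ± 19.7 CPM after ACTH and 29.3 ± 23.6 CPM untreated, with a log2 fold change of -0.02 (SE 0.36) whose sign depended on the library left out. The adipocyte markers had a median log2 fold change of 0.60 with ACTH (8 higher, 1 lower, 2 at an unadjusted p under 0.05), and their part in the Lipe and Plin2 values was not tested. In 0 of the 10 genes did the 4 ACTH-treated and the 4 untreated libraries stand apart, beside 3.89% of all genes.

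The remaining comparisons split these averages, and none of the 10 genes passed in any of them in edgeR. Between genotypes in untreated glands, 2 of the 10 (Stard4 and Plin2, both lower) had an unadjusted p under 0.05, which 4.84% of all genes reached, and 0% of genes passed the adjustment; DESeq2 called 1 of the 10 (Stard4) and 0.716% of all genes. After ACTH, 3 of the 10 (Scarb1 higher at 1.23, Stard4 and Plin2 lower) had an unadjusted p under 0.05, against 8.23% of all genes, and 0.00651% passed; DESeq2 called these 3, among 3.46% of all genes. For ACTH within Siah1a-/- glands the count was 1 of 10 (Npc1) against 4.22%, and within wild-type glands 1 of 10 (Plin2) against 2.56%, with 0% called in either. For the interaction, which asks whether the ACTH difference depends on genotype, it was 0 of 10 against 1.84%, with 0% called. The greatest interaction estimate was that of Abcg1, -1.34 (SE 0.79; adjusted p = 1), with the highest value in the untreated female Siah1a-/- gland.

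A further 5 lists of cholesterol genes were read in the genotype comparison, and no gene of any of them passed the adjustment over all genes with all 8 libraries. Of 15 SREBP2 targets of cholesterol synthesis, 14 were lower in Siah1a-/- glands at an unadjusted p under 0.05, with a list median of -1.22, beside 13.4% of all genes with such a p and 53.5% with a lower estimate. Without the 2 libraries with kidney or liver transcripts 14 of 15 were again lower at such a p, which 7.51% of all genes reached, and 1 gene of the list passed the adjustment, as did 0.0188% of all genes. This was Idi1, which isomerises isopentenyl diphosphate (-2.14, SE 0.22, adjusted p = 0.0416), named after its values were seen. Hmgcs1, which makes the precursor HMG-CoA, had 353 and 339 CPM in ACTH-treated and 478 and 371 CPM in untreated Siah1a-/- glands, against 980 and 909 CPM in ACTH-treated and 830 and 995 CPM in untreated wild-type glands (log2 fold change -1.28, SE 0.16, adjusted p = 0.0645). The genotypes did not overlap in Hmgcs1, as for Stard4.

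For this list and those below, 13.4% of all genes tested had an unadjusted p under 0.05 and 53.5% a lower estimate. The ester storage and droplet list (18 genes tested) had a median of -0.70, with 13 lower and 5 higher and 5 lower at an unadjusted p under 0.05. These 5 included Cideb, a droplet protein of liver and other tissues, at 51.2 CPM in the library with liver and 29.1 CPM in the one with kidney transcripts and at most 0.41 CPM elsewhere, also named after its values were seen. Without these 2 libraries 17 genes of the list were tested, with a median of -0.70 and 5 lower at an unadjusted p under 0.05. Its leading genes were Mgll, a lipase of monoacylglycerols, at 199 to 268 CPM in Siah1a-/- and 356 to 456 CPM in wild-type glands (-0.83, SE 0.15, adjusted p = 0.103), and Bscl2, which encodes seipin, a protein of droplet formation, at 44.5 to 70.6 CPM in Siah1a-/- and 85.4 to 110.4 CPM in wild-type glands (-0.81, SE 0.19, adjusted p = 0.154). Plin1 and Cidec of the ester storage and droplet list are also among the adipocyte markers. In the ACTH-treated male Siah1a-/- gland Dgat2 stood at 8.18 and Plin5 at 1.14 CPM. The other Siah1a-/- glands had 61.1 to 380 and 30.7 to 52.9 CPM. Fitm2 and Hilpda were instead highest in that gland among Siah1a-/- glands, at 51.4 and 7.47 CPM. These genes were named after their values were seen. The part of fat cells in the values of this list was not tested. The lipoprotein uptake list (10 of 12 tested) had a median of -0.45, with 9 lower and 1 higher, of which 3 and 1 were at an unadjusted p under 0.05. Lrp1, an endocytic receptor, had 94.0 to 149 CPM in Siah1a-/- and 154 to 342 CPM in wild-type glands, the highest in the library with liver transcripts (-0.92, SE 0.16, adjusted p = 0.0997, and -0.88 without the kidney and liver libraries). Apoe, another of the lower genes and named after its values were seen, had 4689 CPM in the library with liver transcripts. Its log2 fold change was -1.365, and -0.844 without the kidney and liver libraries. Pdzk1, which in liver holds SR-BI at the cell surface, had 1.14 to 6.19 CPM in Siah1a-/- glands, against 323 CPM in the wild-type library with kidney transcripts, 45.0 CPM in the one with liver transcripts and 2.41 and 3.28 CPM in the other wild-type libraries (-4.70, adjusted p = 0.227, and -0.33, adjusted p = 0.976, without the kidney and liver libraries).

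The sterol transport list (18 tested) had a median of -0.14, with 14 lower and 4 higher, of which 2 lower ones were at an unadjusted p under 0.05. Stard5, a START-domain protein related to Stard4, had 25.3 and 15.2 CPM in ACTH-treated and 55.5 and 108 CPM in untreated Siah1a-/- glands, against 62.8 and 93.0 CPM in ACTH-treated and 114 and 126 CPM in untreated wild-type glands (-1.23, SE 0.36, adjusted p = 0.214). Scp2, the sterol carrier protein of peroxisomes, had 360 to 458 CPM in Siah1a-/- and 456 to 1559 CPM in wild-type glands, the highest in the library with liver transcripts (-0.86, SE 0.31, adjusted p = 0.292, and -0.33, adjusted p = 0.815, without the kidney and liver libraries). The efflux and LXR list (11 tested) had a median of -0.42, with 8 lower and 3 higher, of which 4 and 1 were at an unadjusted p under 0.05. Of these 4, Abcg5, Nr1h3 and Rxra were highest in the library with liver transcripts, Nr1h3 at 41.7 and Rxra at 180 CPM. Without the kidney and liver libraries Nr1h3 went from -1.12 to -0.78 and Rxra from -0.81 to -0.43, while Abca2 went from -0.91 to -1.15. These genes were named after their values were seen. The list median was then -0.43. Mylip, an LXR target whose product degrades the LDL receptor, had 25.4 to 36.5 CPM in Siah1a-/- and 12.9 to 20.9 CPM in wild-type glands (0.91, SE 0.25, adjusted p = 0.201), and Abcg5, an exporter of liver and gut, had at most 0.16 CPM in Siah1a-/- glands and 33.9 CPM in the library with liver transcripts (-6.23, adjusted p = 0.196, and -3.15, adjusted p = 0.916, without the kidney and liver libraries).

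Among 10017 genes with a mean of at least 3 on the log2 CPM scale, those whose levels over the 8 libraries were most like Stard4 were Sqle (Pearson r = 0.978), Zfp276 (0.971) and Rprd1a (0.965). Sqle encodes squalene epoxidase, an enzyme of sterol synthesis. For Plin2 they were Agpat2 (0.948), an acyltransferase of triglyceride synthesis, Pygl (0.947) and Kif1c (0.947). These are descriptions over 8 libraries that share genotype and treatment, chosen as the highest of all genes compared, and they carry no test.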

How the data were processed

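RNA of 8 adrenal glands was sequenced as directional, single-end libraries, per the labels' protocols. TopHat2 2.0.13, FastQC 0.11, Partek 6.6, Bowtie2 2.2.5.0 and the build mm10 are named in the submitters' processing notes, without roles. How strand and multiply matched reads were treated was not given in the sources used here, so overlapping genes and near-identical copies are uncertain.

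Per the file headers, the authors deposited an estimated count and an RPKM value for each of 28678 RefSeq transcripts. The estimated counts (46.6% not whole within 1e-06) were summed per symbol and rounded. RPKM served for levels between genes and as an alternative. Genotype, treatment and sex follow the labels, also for the untreated wild-type library whose sex-chromosome transcripts went against its label. No fit with another sex for that library was run.

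Genes were filtered with filterByExpr (minimum count 10; 3485 removed), scaled by TMM (factors 0.888 to 1.07) and tested with edgeR 4.0.16 (R 4.3.3) by the two-sided quasi-likelihood F-test with Benjamini-Hochberg adjustment over 15361 genes. The model held genotype, treatment and sex label for the averages (4 residual degrees of freedom) and an added interaction for the other comparisons (3). The libraries are separate animals, 2 per group, and every pair of libraries differed beyond sampling noise (lowest median chi-square ratio 19.1). Alternatives were RLE factors, no TMM, no filter, DESeq2 1.42.0, limma-voom (limma 3.58.1), no sex covariate, the libraries of 1 treatment alone, without 2 wild-type libraries and without each library. The scripts were tested on simulated data. The 10 genes, the other lists and the markers were chosen with earlier results of these data known. Other genes were named as the 2 smallest p-values per list and the 3 genes most like each of the 2 members with the smallest p. Some single genes of the lists are not reported here. Intervals for counts of 0 cover counting error only. Promoters were RefSeq sequences of GRCm38.p6, the release of mm10.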

Additional observations from a re-analysis of the deposited data

Results flagged for a closer look

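With 4 libraries in a genotype or treatment, a value was singled out where its gap to the nearest of the others as a share of the whole range exceeded Dixon's 95% critical value. Of 40 groups tested, 4 held such a value. Chance gives about 1 in 20 for separate groups of like values. Here each library entered both a genotype group and a treatment group of each gene, so the 4 cannot be set against that rate. Lipe in the ACTH-treated female Siah1a-/- library, at 272 CPM, lay far above the other 3 Siah1a-/- libraries. Npc1 in the untreated wild-type library labelled male, at 47.4 CPM, lay far below the other 3 wild-type libraries. Abcg1 in the untreated female Siah1a-/- library, at 30.7 CPM, lay far above the others, both among the 4 Siah1a-/- and among the 4 untreated libraries.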

How the results depend on the processing

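Of 485 alternative log2 fold changes for 31 gene results, 449 kept their direction and side of the threshold, 11 passed it newly and 25 turned sign. None of the 31 passed in the main fits, so keeping the side of the threshold meant only that they again did not pass. With RPKM in place of CPM, 19 of 20 ratios of group means kept their direction and 20 moved by less than the spread. The exception in sign was Soat1 with ACTH (a log2 ratio of -0.050 in RPKM and 0.0096 in CPM). For the genotype average, the members called were 3 with DESeq2, 1 with limma-voom and 0 to 3 when a library was left out, the 3 without the untreated wild-type female (Stard4 -2.07, Plin2 -0.89, Scarb1 1.42). Leaving out that female leaves the library with kidney transcripts as the only untreated wild-type library. DESeq2 called 1 member in untreated glands and 3 after ACTH, and DESeq2 and limma-voom called 0 members for ACTH within a genotype and for the interaction.

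Genes called for the genotype average (4 in edgeR) were 7 without TMM, 41 without the filter, 944 with DESeq2, 108 with limma-voom, 1 without the sex covariate, 27 and 26 in the untreated and the ACTH-treated libraries alone, and 0 to 253 without a library. For ACTH (3) they were 8 without the filter, 122 with DESeq2, 0 without the sex covariate, 0 without the 2 wild-type libraries and 0 to 23 without a library. For genotype in untreated glands (0) they were 110 with DESeq2 and 0 to 95 without a library; after ACTH (1), 2 without TMM, 11 without the filter, 501 with DESeq2, 13 with limma-voom, 0 without the sex covariate, 21 without the 2 wild-type libraries and 0 to 173 without a library, the most without the wild-type male. For ACTH in Siah1a-/- glands (0) they were 100 with DESeq2 and 2 without the 2 wild-type libraries; in wild-type glands (0), 7 without the filter, 37 with DESeq2, 3 with limma-voom and 0 to 70 without a library; for the interaction (0), 10 with DESeq2, 2 without the 2 wild-type libraries and 0 to 11 without a library. The cause was not tested.

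Npc1 between genotypes was -0.011 without the sex covariate, -0.30 without the 2 wild-type libraries, -0.17 in the untreated libraries alone and -0.21 to 0.36 without a library. Abca1 between genotypes was -0.23 and Abcg1 -0.20 in the ACTH-treated libraries alone, and Abca1 was -0.15 to 0.59 without a library. With ACTH, Abca1 was -0.26 without the 2 wild-type libraries, and without a library Soat1 was -0.30 to 0.21, Lipa -0.20 to 0.13, Stard4 -0.29 to 0.28 and Abcg1 -0.36 to 0.38. Npc1 with ACTH in wild-type glands was -0.046 without the 2 wild-type libraries and -0.052 to 1.29 without a library. Over all alternatives, Npc2 between genotypes ranged from -0.24 to -0.02 and Abcg1 from -0.20 to 1.05, and Npc2 with ACTH from 0.12 to 0.32. The labels give no replicate numbers, so animals were matched by the sex label alone, which is a covariate of the models.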

Other observations

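In the same 5 lists, no gene passed the adjustment over all genes between ACTH-treated and untreated glands in edgeR; medians were 0.31 (lipoprotein uptake), 0.30 (ester storage and droplets), 0.08 (sterol transport), 0.18 (efflux and LXR) and 0.02 (SREBP2 targets), beside 0.02 over all genes. At an unadjusted p under 0.05 the higher estimates numbered 1, 3, 0, 1 and 0 in the same order, and 1 gene of the transport list was lower, beside 6.11% of all genes. Chosen after their values were seen, Pnpla2, the lipase that opens triglyceride droplets, had 452 and 824 CPM in ACTH-treated Siah1a-/- and 728 and 450 CPM in ACTH-treated wild-type glands, against 276 and 325 CPM in untreated Siah1a-/- and 420 and 311 CPM in untreated wild-type glands (log2 fold change 0.89, SE 0.26, adjusted p = 0.719). The ACTH-treated female Siah1a-/- and ACTH-treated male wild-type glands, highest in Pnpla2, also had the highest sums of adipocyte markers (5929 and 6229 CPM). The part of these markers in the Pnpla2 values was not tested. Stard5 was the lower gene of the transport list (-1.27, SE 0.36, adjusted p = 0.719).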
